A study of Mus with 6 samples.

Results

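Interferon-inducible GTPases are proteins that cells make in response to interferons and that act in defence against microbes inside the cell. The 10 genes described here are Gvin1, Tgtp1, Tgtp2, Igtp, Irgm1, Irgm2, Iigp1, Gbp2, Gbp4 and Gbp7. They were found by symbol in a deposited table of 10995 protein-coding genes, and all 10 were present and passed the filter of a mean of at least 1 FPKM (fragments scaled to transcript length and library size) that left 8816 genes for testing. The set was chosen because Gvin1, Tgtp1 and Igtp had been seen to be strongly lower with anti–VEGF-B in these same libraries, and their relatives were added by family. The differences of the 10 genes between treatments are therefore a description and carry no test.

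RNA was measured in CD4+ T cells from the spleens of wild-type (WT) mice. Both groups share the same TCR activation of 3 days, for which the cells received antibodies to CD3 at 5 μg/mL and to CD28 at 2 μg/mL in the presence of 100 U/mL of IL-2. One group received anti–VEGF-B, an antibody that neutralizes the growth factor VEGF-B, at 1 μg/mL, and the control group received normal goat IgG at 1 μg/mL. Each group had 3 libraries, and the labels do not say whether these came from separate mice, so that the p-values measure only the spread between these samples, which may be technical. The comparison asks what blocking the VEGF-B that T cells secrete changes in their transcriptome.

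Interferon-γ binds the receptor formed by IFNGR1 and IFNGR2, which signals through the kinases JAK1 and JAK2, and transcription factors such as IRF1 then switch on the GTPase genes. The immunity-related GTPases (IRG family) gather on the vacuole that encloses a parasite or bacterium and break its membrane. Within this family, Irgm1, Irgm2 and Igtp (also known as Irgm3) encode regulators that sit on the cell's own membranes and hold the others inactive, whereas Tgtp1, Tgtp2 (Irgb6) and Iigp1 (Irga6) encode effectors. The guanylate-binding proteins (GBP family) coat bacteria and damaged vacuoles, and Gvin1 encodes a very large GTPase of little known function. In mouse T cells, Irgm1 is known for protecting activated cells from death in response to interferon-γ.

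The FPKM of all listed genes summed to between 260058 and 276622 per library, and the number of reads behind them is unknown. Across the 8816 genes the median log2 fold change (anti–VEGF-B minus IgG) on the log2(FPKM + 1) scale was -0.15. The added 1 makes changes of weakly expressed genes look smaller than they are. IgG replicate 2 stood apart from the other IgG libraries, with a score of 27.2 on the first principal component against 8.76 and 11.8. It held the highest of the 6 values for 50.9% of all genes tested. T cell markers were high in every library (8 markers, summed FPKM of 455 to 503 with anti–VEGF-B and 472 to 553 with IgG). Among 8 monocyte and macrophage markers, 5 were in the table, with sums of 11.5 to 13.1 and 13.0 to 30.1, and the top value was that of IgG replicate 3, where Lyz2 reached 16.4. Of 6 B cell markers 1 was in the table (Cd79b, at most 1.34 FPKM), as was 1 of 6 for dendritic cells (Zbtb46, at most 0.372), 1 of 4 for NK cells (Klrk1, at most 0.0943) and 0 of 4 for neutrophils. Of the CD8 T cell markers, Cd8a had means of 0.0947 FPKM under anti–VEGF-B and 0.0493 under IgG, and Cd8b1 had 3.79 and 3.47. Genes of these other cell types that are not in the table were not analysed here. In such bulk samples, fewer cells of a type and less RNA per cell cannot be told apart.

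Of the 10 GTPase genes, 9 had all 3 anti–VEGF-B libraries below the lowest IgG library, and Gbp2 did not. Groups that did not overlap were found in this direction for 38.5% of all genes tested, in the opposite direction for 10.5% and in either for 49%, and nothing is read from the count because the set was picked on this contrast. By mean FPKM, 8 genes were more than 2-fold lower and 5 more than 3-fold lower with anti–VEGF-B. At an adjusted p under 0.05 in limma, the call rule used for other genes below, 23.8% of all genes were called lower, 4.87% higher and 28.7% in either direction. This rule called 9 of the 10 genes lower, from which nothing is read either.

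**Figure D1:**
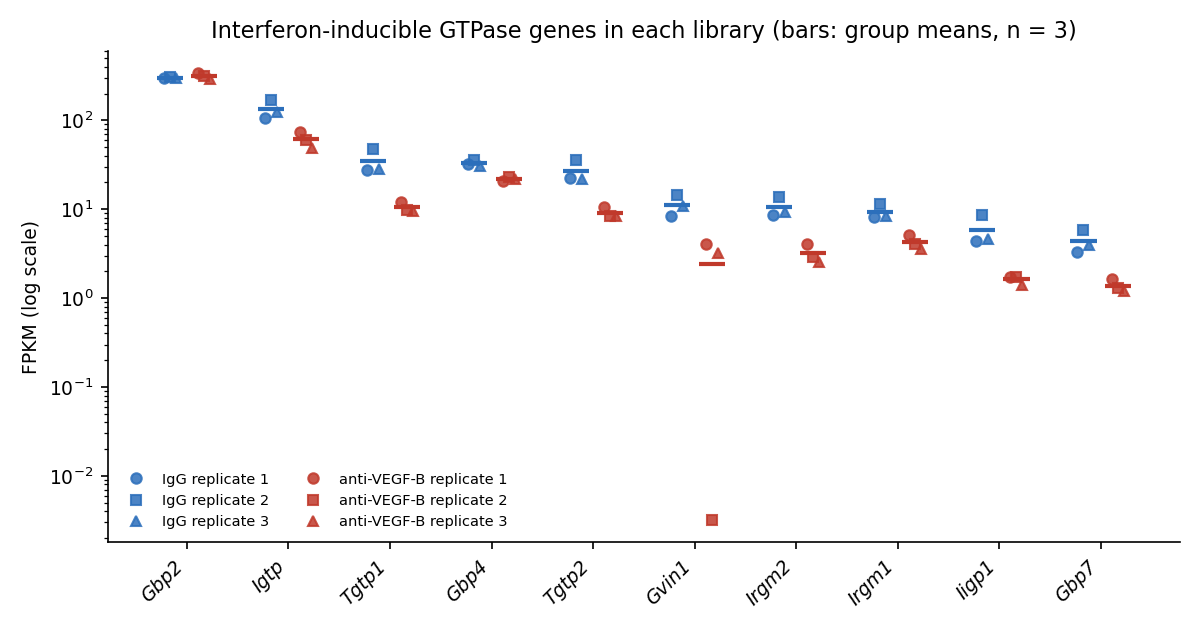
FPKM (log axis) of the 10 GTPase genes in each of the 6 libraries, ordered by mean with IgG. Points are libraries (blue, IgG; red, anti-VEGF-B), shapes are replicates and bars are means of 3. The 2 colours separate for every gene but Gbp2, and Gvin1 in anti-VEGF-B replicate 2 lies far below, at 0.00319 FPKM.

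With IgG, the levels of these genes spanned a wide range. Gbp2 was the most abundant, at 302 ± 6.96 FPKM (SD, n = 3 here and below), higher than 98.4% of all genes tested, and Igtp followed with 133 ± 33.7. Tgtp1 (34.8 ± 11.5), Gbp4 (32.7 ± 2.66) and Tgtp2 (26.9 ± 8.07) came next, with overlapping libraries between neighbours in this order. Gvin1 (11.1 ± 3.01), Irgm2 (10.6 ± 2.85), Irgm1 (9.27 ± 1.89), Iigp1 (5.84 ± 2.36) and Gbp7 (4.37 ± 1.27) formed the lower end, and each of these overlapped its neighbour. Only Gbp2 against Igtp, Igtp against Tgtp1, and Tgtp2 against Gvin1 were neighbours whose IgG libraries did not overlap. Together the 10 genes made up 0.144% to 0.171% of the summed FPKM with anti–VEGF-B and 0.188% to 0.252% with IgG. Gbp2 alone supplied 71.7% to 74.3% of that sum with anti–VEGF-B and 47.4% to 57.4% with IgG.

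Among the effector IRG genes, Tgtp1 (ENSMUSG00000078922.9, chromosome 11 of GRCm38, 48985327 to 48994172) was at 12.1, 9.77 and 9.51 FPKM in anti–VEGF-B replicates 1, 2 and 3. It was at 27.9, 48.1 and 28.4 in the IgG replicates. The groups lay apart, with IgG replicate 2 the highest. The mean was 3.33-fold lower with anti–VEGF-B (log2 fold change -1.60, standard error 0.191) and 2.69-fold lower when IgG replicate 2 was left out. Tgtp2 (ENSMUSG00000078921.3, chromosome 11, 49057194 to 49064206) had 10.6, 8.47 and 8.44 FPKM under anti–VEGF-B and 22.5, 36.2 and 21.9 under IgG. Its groups also lay apart, and its mean was 2.93-fold lower (log2 fold change -1.42, standard error 0.178). Iigp1 (ENSMUSG00000054072.11, chromosome 18) was at 1.72, 1.74 and 1.40 FPKM under anti–VEGF-B and at 4.34, 8.55 and 4.62 under IgG. This made it 3.60-fold lower (log2 fold change -1.33, standard error 0.203), or 2.76-fold without IgG replicate 2, which was 1.91 times the mean of the other IgG libraries.

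Tgtp1 and Tgtp2 are near-identical copies, so reads could have been split between them and each single value is uncertain. The sum of both was 19.6 ± 2.68 FPKM under anti–VEGF-B and 61.7 ± 19.6 under IgG, 3.14-fold lower. The ratio of Tgtp1 to Tgtp2 was 1.14, 1.15 and 1.13 under anti–VEGF-B, against 1.24, 1.33 and 1.30 under IgG. The ratio thus differed far less between treatments than the sum did. In the deposited table the span of Tgtp1 overlaps that of Gm12185, another IRG gene on the same strand, by 6900 bases. Gm12185 was low, at means of 0.278 FPKM under anti–VEGF-B and 0.537 under IgG. The listed span of Olfr56 covers both Tgtp genes on the opposite strand. The libraries were stranded, but whether reads were assigned by strand is not given in the sources used here.

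The regulatory IRG genes were lower as well. Igtp (ENSMUSG00000078853.8, chromosome 11, 58199556 to 58207591) was at 74.3, 60.4 and 49.2 FPKM under anti–VEGF-B and at 105, 171 and 123 under IgG. No library of one group reached the other, and the mean was 2.17-fold lower (log2 fold change -1.10, standard error 0.185). Irgm1 (ENSMUSG00000046879.7, chromosome 11, 48861968 to 48871683) had 5.17, 4.01 and 3.59 FPKM under anti–VEGF-B and 8.09, 11.5 and 8.28 under IgG. This was 2.18-fold lower (log2 fold change -0.96, standard error 0.153). Among the 6 IRG genes it was the smallest difference on the log2(FPKM + 1) scale, whereas by mean FPKM that of Igtp was the smallest. Irgm2 (ENSMUSG00000069874.7, chromosome 11, 58199618 to 58222782) was at 4.07, 2.93 and 2.55 FPKM against 8.69, 13.9 and 9.24, or 3.33-fold lower (log2 fold change -1.46, standard error 0.184).

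Igtp and Irgm2 share 7974 bases of their listed spans on the same strand, which makes their separate values uncertain. In RefSeq's annotation of the same build (GRCm38.p6), Irgm2 runs from 58214977 to 58222783 and begins 7384 bases beyond the end of Igtp. The ratio of Igtp to Irgm2 was 18.2, 20.6 and 19.3 with anti–VEGF-B and 12.1, 12.3 and 13.3 with IgG, so that the fold difference between treatments was larger for Irgm2 than for Igtp. The sum of both was 64.5 ± 13.4 FPKM under anti–VEGF-B and 144 ± 36.5 under IgG, 2.23-fold lower. Summed over the 6 IRG genes, FPKM was 90.0 ± 16.8 with anti–VEGF-B and 220 ± 59.9 with IgG, a difference of 2.45-fold. Spans that overlap another listed gene on the same strand were found for 4 of the 10 genes and for 4.17% of all 10995 genes.

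The GBP genes differed among themselves. Gbp2 (ENSMUSG00000028270.12, chromosome 3, 142620602 to 142638008) was at 340, 314 and 291 FPKM under anti–VEGF-B and at 298, 310 and 299 under IgG. All 3 IgG values lay within the range of the anti–VEGF-B values, and the log2 fold change was 0.057 (standard error 0.0781). Its sign depended on the scaling between libraries, as it was 0.29 after median centring and -0.028 after cyclic loess. Gbp7 (ENSMUSG00000040253.15, chromosome 3, 142530342 to 142550149), 70452 bases from Gbp2, was far lower in level. It had 1.62, 1.31 and 1.20 FPKM under anti–VEGF-B and 3.33, 5.79 and 3.99 under IgG, 3.18-fold lower (log2 fold change -1.15, standard error 0.163). Gbp4 (ENSMUSG00000079363.7, chromosome 5, 105115767 to 105139586) was at 20.6, 22.7 and 21.8 FPKM under anti–VEGF-B and at 32.2, 35.6 and 30.4 under IgG. Its groups lay apart, yet the difference of 1.51-fold (log2 fold change -0.57, standard error 0.0843) was smaller than for the IRG genes. The listed span of Gbp4 lies almost wholly within those of Gbp8 and Gbp9 on the same strand, which in RefSeq end before Gbp4 begins, so reads could have been divided among the 3 genes. With Gbp2 making up most of it, the summed FPKM of the 3 GBP genes was 338 ± 23.9 with anti–VEGF-B and 339 ± 10.7 with IgG.

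Gvin1 (ENSMUSG00000045868.12, chromosome 7, 106156556 to 106215326) was at 4.01, 0.00319 and 3.23 FPKM under anti–VEGF-B and at 8.33, 14.3 and 10.8 under IgG. The groups lay apart with or without anti–VEGF-B replicate 2, in which the gene was listed close to 0. The log2 fold change was -2.10 (standard error 0.511), and -1.37 without that replicate, when the mean was 3.08-fold lower rather than 4.61-fold. Gm4070 (chromosome 7, 105895139 to 105953967) is a close relative of Gvin1 whose span of 58829 bases is near the 58771 of Gvin1. In 5 libraries the ratio of Gvin1 to Gm4070 ran from 1.10 to 1.19, while in anti–VEGF-B replicate 2 it was 0.000862. Gm4070 was at 3.64, 3.70 and 2.72 FPKM with anti–VEGF-B, so its value in replicate 2 was like the others, and at 7.37, 12.6 and 9.69 with IgG. Reads could have been divided between these 2 genes too, so Gm4070 is not independent of Gvin1. Tested on its own, it fell with anti–VEGF-B (limma, log2 fold change -1.30 with a standard error of 0.173, adjusted p = 0.00488). Summed over both genes, FPKM was 7.65, 3.70 and 5.95 under anti–VEGF-B and 15.7, 26.9 and 20.4 under IgG, 3.64-fold lower by the means. In anti–VEGF-B replicate 2 the sum is almost that of Gm4070 alone, so the Gvin1 value close to 0 also lowers this mean.

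**Figure D2:**
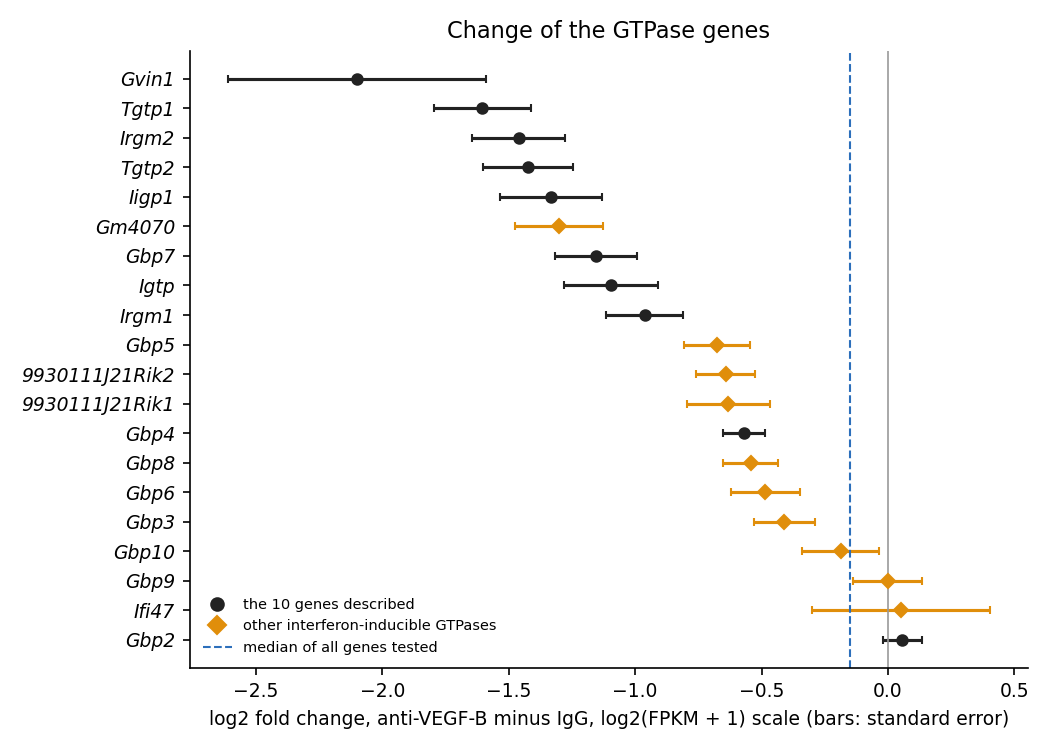
log2 fold change (anti-VEGF-B minus IgG, log2(FPKM + 1) scale) with standard error of the 10 GTPase genes described (black) and of 10 other interferon-inducible GTPases tested (orange). The dashed line is the median of all genes, -0.15. Gvin1 lies lowest with the widest bar, and Gbp2, Ifi47 and Gbp9 lie at about 0.

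The genes also differed in how much they varied within a group. All 10 had their highest IgG value in replicate 2, as had 59.3% of all genes tested, and for 9 it was the highest of the 6 libraries. The ratio of IgG replicate 2 to the mean of the other IgG libraries was 1.04 for Gbp2, 1.14 for Gbp4 and between 1.40 and 1.91 for the other 8, where the median of all genes was 1.10. The coefficient of variation with IgG was 2.30% for Gbp2 and 8.13% for Gbp4, below the median of all genes (10.6%), and ran from 20.4% (Irgm1) to 40.4% (Iigp1) for the rest. Gbp2 and Gbp4, with the smallest differences between treatments, were thus also the least variable among the control libraries. Within anti–VEGF-B, 8 of the 10 genes were lowest in replicate 3. Over all genes tested, that library also scored lowest on the first principal component, at -21.0 against -13.1 and -13.5 for anti–VEGF-B replicates 1 and 2. The share of all genes that were lowest in it was not computed, so nothing is read from this count.

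With each library left out in turn, the 9 genes other than Gbp2 kept a log2 fold change below 0. Without IgG replicate 2 the median over the 10 genes was -1.02 and that of all genes -0.11, against -1.24 and -0.15 with all libraries. Quantile normalization, median centring and cyclic loess each left these 9 genes below 0. Of the 14 alternatives run, a pseudocount of 0.1 moved Gvin1 most, to -3.29.

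**Figure D3:**
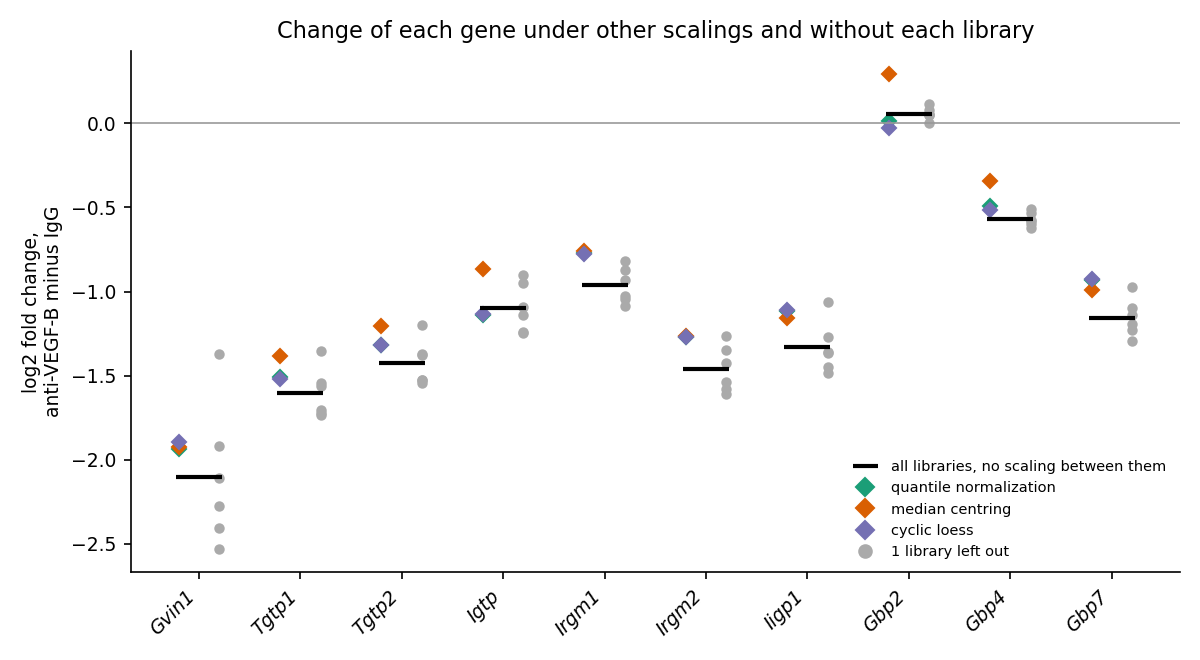
log2 fold change of each GTPase gene with all libraries and no scaling between them (black bar), under 3 scalings (diamonds) and with 1 library left out (grey points, 6 per gene). Gbp2 stays near 0 except after median centring, at 0.29, and Gvin1 moves most, to -1.37 without anti-VEGF-B replicate 2.

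Further interferon-inducible GTPases were listed by family (31 symbols, of which 16 were in the table and 10 passed the filter). Of these 10, 7 fell at an adjusted p under 0.05 in limma and 0 rose, where 23.8% of all genes were called lower. The median log2 fold change was -0.51, against -0.15 for all genes. Gbp5 (chromosome 3, 142493978 to 142522344), known for its part in inflammasome activation, had 7.01 ± 0.717 FPKM under anti–VEGF-B against 11.9 ± 2.19 under IgG and fell by 0.68 on the log2 scale (limma, adjusted p = 0.00954). Gbp8 (-0.54, adjusted p = 0.0110) and Gbp6 (-0.49, adjusted p = 0.0288) also fell, as did the IRG genes 9930111J21Rik2 (-0.64, adjusted p = 0.00843) and 9930111J21Rik1 (-0.63, adjusted p = 0.0228), which lie in the same cluster as the Tgtp genes. Gbp6 did not pass after any of the 3 scalings (adjusted p of 0.126 to 0.131 in limma, against 0.0284 to 0.131 over its alternatives). It also did not pass without moderation of the variance or in 4 of the 6 fits that left out 1 library. 9930111J21Rik1 did not pass after quantile normalization, after cyclic loess, without moderation or when anti–VEGF-B replicate 1, anti–VEGF-B replicate 3 or IgG replicate 2 was dropped (adjusted p in limma between 0.0133 and 0.121 over its alternatives). Gm4070, described with Gvin1, and Gbp3 complete the 7 genes. Without Gm4070, which may share reads with Gvin1, 6 of 9 fell and the median was -0.49, a count chosen after seeing the data. These 9 still hold Gbp8, which fell, and Gbp9, which was not called. Both may share reads with Gbp4, so this count is not independent of the 10 genes described either.

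With quantile normalization the count of 7 became 4, as it did with cyclic loess and in the fit that left out anti–VEGF-B replicate 1. Over all 8816 genes, the 2099 called lower became 913, 938 and 1367 in these fits. Leaving out IgG replicate 2 gave 4 that fell and 1 that rose, Ifi47, where 1101 of all genes were called lower and 258 higher. Below the filter were 6 more, including Mx1, an antiviral dynamin-like GTPase (means of 0.109 FPKM under anti–VEGF-B and 0.329 under IgG). All 6 had the higher mean with IgG, and 4 had groups that did not overlap. Among the 8816 genes tested, 6273 had a log2 fold change below 0 and 38.5% had groups that did not overlap in this direction. The same shares were not computed for all genes below the filter, so nothing is read from these counts of weakly expressed genes.

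Ifi47, which encodes the IRG protein Irgd and lies 12380 bases from Tgtp2, was chosen after its values were seen because its libraries differed from this pattern. It was at 34.9, 30.7 and 30.0 FPKM under anti–VEGF-B and at 20.8, 64.2 and 21.3 under IgG. All anti–VEGF-B libraries therefore lay between IgG replicate 2 and the other IgG libraries. The log2 fold change was 0.051 (adjusted p = 0.922 from limma) and became 0.57 without IgG replicate 2 (adjusted p = 0.0120, against 0.0120 to 0.982 over its alternatives). Its listed span lies within that of Olfr56 on the same strand.

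Of the 10 genes, 5 lie on chromosome 11, in a cluster of Irgm1, Tgtp1 and Tgtp2 and in the pair of Igtp and Irgm2. Within 250 kb of any of the 10 genes, 24 listed genes belong to none of the GTPase lists, and 21 of these were tested. Of these, 7 fell and 0 rose at an adjusted p under 0.05 in limma (33.3%, against 23.8% of all genes called lower), with a median log2 fold change of -0.23. Among the 7 were Olfr56, whose listed span covers Ifi47 on the same strand, and Gm43302. The span of Gm43302 covers Gbp10 and nearly all of Gbp6 on the same strand. Reads of these GTPases could have been counted for both neighbours, so the share of 33.3% is not independent of the GTPases.

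Of 29 genes for interferon ligands, receptors and signalling, 25 were tested, of which 12 fell and 2 rose at an adjusted p under 0.05 in limma (all genes, 23.8% lower and 4.87% higher). The median log2 fold change was -0.32. After median centring 8 fell and 5 rose, and after quantile normalization or cyclic loess 8 fell and 3 rose. Over all 8816 genes, 918 were called lower and 1421 higher after median centring. These were 913 and 880 after quantile normalization, and 938 and 852 after cyclic loess. Ifng, Ifngr1, Ifngr2, Jak1 and Jak2 were not called, while Tyk2, another JAK kinase gene of the list named after its value was seen, fell (-0.60, adjusted p = 0.0259 from limma). Of the type I interferon receptor genes, also named after their values were seen, Ifnar1 fell (-0.50, adjusted p = 0.0259 from limma). Ifnar2 was not called (adjusted p = 0.775 from limma). Tyk2 and Ifnar1 were not followed over the alternatives. The 2 that rose, named after their values were seen, were Irf2 (0.32, adjusted p = 0.0198 from limma), which encodes an antagonist of IRF1, and Ptpn2 (0.34, adjusted p = 0.0273), which encodes a phosphatase that acts on JAK kinases. Neither passed without anti–VEGF-B replicate 2, anti–VEGF-B replicate 3 or IgG replicate 2, nor did Ptpn2 without anti–VEGF-B replicate 1. Over the alternatives, the adjusted p in limma lay between 0.00717 and 0.0790 for Irf2 and between 0.0167 and 0.111 for Ptpn2. Ifng itself was low, at 1.01, 1.14 and 0.890 FPKM under anti–VEGF-B and 1.99, 0.880 and 1.14 under IgG (log2 fold change -0.19, adjusted p = 0.404 from limma). Ifngr1 was at 17.6 ± 1.10 and 17.4 ± 1.93 FPKM with anti–VEGF-B and IgG (adjusted p = 0.876 from limma), and Ifngr2 at 14.1 ± 0.968 and 13.3 ± 1.20 (0.526). The kinase genes Jak1 (65.7 ± 3.08 and 59.5 ± 2.08 FPKM, adjusted p = 0.160 from limma) and Jak2 (81.3 ± 1.75 and 85.1 ± 4.14, adjusted p = 0.505) were not called either. After median centring Ifngr1, Ifngr2 and Jak1 were called higher (log2 fold changes of 0.24, 0.30 and 0.37, adjusted p of 0.0488, 0.0360 and 0.0130 from limma).

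Socs1 (chromosome 16, 10783808 to 10785536), the feedback inhibitor of JAK kinases that interferon-γ induces, was at 14.6, 16.4 and 11.7 FPKM under anti–VEGF-B and 27.4, 35.8 and 23.1 under IgG. It fell by 0.96 on the log2 scale (adjusted p = 0.00714 from limma). Irf9, which encodes a subunit of the type I interferon transcription complex (-0.58, adjusted p = 0.0130), and Irf3 (-0.55, adjusted p = 0.00859) also fell. So did Nlrc5, the activator of MHC class I genes (-0.72, adjusted p = 0.0136 from limma), and Ptpn6, a phosphatase gene (-0.40, adjusted p = 0.0136). Irf1 had 27.9 ± 2.78 FPKM under anti–VEGF-B against 35.0 ± 3.22 under IgG and fell by 0.32 on the log2 scale (limma, adjusted p = 0.0383), but did not pass after any of the 3 scalings (0.0571 to 0.463) or in 4 of the fits without 1 library. Over the alternatives, its adjusted p in limma lay between 0.0212 and 0.463. Ptpn6 did not pass after median centring, without moderation or without anti–VEGF-B replicate 3, and its adjusted p in limma lay between 0.0122 and 0.141. Irf9 was not called when anti–VEGF-B replicate 3 was dropped (adjusted p = 0.0516 in limma, the highest of its alternatives but for that without moderation, 0.0870). The count of 14 signalling genes became 4 when anti–VEGF-B replicate 3 was dropped and 9 when anti–VEGF-B replicate 1 was. Over all 8816 genes, the 2528 called became 859 and 1679 in these fits.

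**Figure D4:**
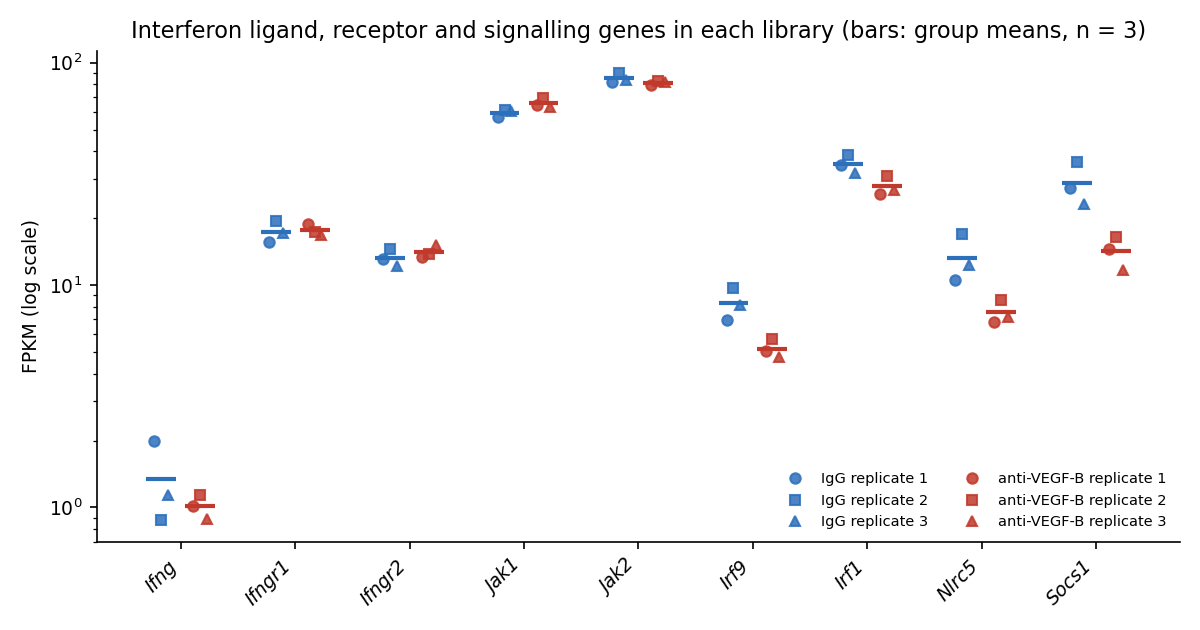
FPKM (log axis) of 9 interferon ligand, receptor and signalling genes in each library. Points are libraries (blue, IgG; red, anti-VEGF-B), shapes are replicates and bars are means of 3. The colours overlap for Ifng, Ifngr1, Ifngr2 and Jak2. Red lies above blue for Jak1, at 63.5 to 69.2 against 57.1 to 60.9. Red lies below blue for Irf9, Irf1, Nlrc5 and Socs1, the last with red at 11.7 to 16.4 and blue at 23.1 to 35.8.

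Interferon-stimulated genes outside the GTPases (76 symbols, 70 in the table and 44 tested) had 19 members that fell and 0 that rose at an adjusted p under 0.05 in limma, or 43.2% lower against 23.8% of all genes. Their median log2 fold change was -0.29, or -0.14 relative to all genes. The lowest adjusted p belonged to Cd274, which encodes the checkpoint ligand PD-L1 (20.3 ± 1.76 FPKM under anti–VEGF-B against 34.8 ± 4.74 under IgG, limma, log2 fold change -0.75, adjusted p = 0.00499). Tapbp, the peptide loading factor tapasin (-0.85, adjusted p = 0.00650), Parp14 (-1.18, adjusted p = 0.00741) and Samhd1, a nucleotide hydrolase that restricts viruses (-0.64, adjusted p = 0.00875), followed, with Samd9l (-0.82, adjusted p = 0.00983) and Pml (-0.68, adjusted p = 0.0131). Each of these 6 genes passed under every alternative run except the fit with no moderation of the variance, where their adjusted p ran from 0.0707 to 0.0932. Pml was not tested under the filter of 5 FPKM. Of the 26 genes below the filter, 22 had the higher mean with IgG and 3 the lower. The same share was not computed for all genes below the filter, so nothing is read from this count. The 19 that fell became 9 with quantile normalization, 11 with cyclic loess and 11 with median centring, where 1, 1 and 3 rose. Over all 8816 genes, the 2099 called lower became 913, 938 and 918 under these scalings, and 880, 852 and 1421 were called higher. Leaving out anti–VEGF-B replicate 2 gave 12, leaving out anti–VEGF-B replicate 3 gave 7, and leaving out IgG replicate 2 gave 10. The genes called lower over all genes were 1430, 695 and 1101 in these fits.

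A list of 20 partner genes held the autophagy proteins that direct these GTPases to membranes and the enzymes that attach lipid anchors to GBPs. It also held Traf6 and Trim21, and Trim21 is counted among the interferon-stimulated genes that fell as well. Of 19 tested, 5 fell and 1 rose at an adjusted p under 0.05 in limma. The share called lower was 26.3%, near the 23.8% of all genes, of which 4.87% were called higher. The median log2 fold change was -0.14, also close to that of all genes. Gabarapl2, whose product GATE-16 works with these GTPases, fell (-0.37, adjusted p = 0.0301 from limma), as did its relative Gabarapl1 (-0.41, adjusted p = 0.0125), Fnta, a subunit of the farnesyl and geranylgeranyl transferases (-0.44, adjusted p = 0.0136), the autophagy kinase gene Ulk1 (-0.32, adjusted p = 0.0363) and Trim21 (-0.56, adjusted p = 0.0270). Atg16l1, of the complex that lipidates these proteins, rose (0.41, adjusted p = 0.0416), but passed in only 1 of the 6 fits without 1 library (adjusted p in limma between 0.0151 and 0.147 over its alternatives). The split was 5 that fell and 1 that rose. It became 1 and 1 with quantile normalization, 2 and 1 with cyclic loess and 1 and 3 with median centring. Over all 8816 genes it was 913 lower and 880 higher, 938 and 852, and 918 and 1421 under these scalings. With median centring, more rose than fell both in the list and over all genes. The count of 6 was 2 when anti–VEGF-B replicate 3 or IgG replicate 2 was left out, and 3 when anti–VEGF-B replicate 1 or IgG replicate 3 was. Over all genes, the 2528 called became 859, 1359, 1679 and 1853 in these fits. Gabarapl2, Ulk1 and Trim21 did not pass after quantile normalization (adjusted p of 0.0931, 0.168 and 0.0975 from limma), and neither did Fnta (0.0524). Gabarapl1 did not pass after median centring (0.125). Over all alternatives, Gabarapl2 and Ulk1 each did not pass in 8 of 14, Trim21 in 6 of 13, Fnta in 3 of 14 and Gabarapl1 in 2 of 14. The highest adjusted p in limma was 0.219 for Gabarapl2, 0.328 for Ulk1 and 0.125 for Trim21.

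**Figure D5:**
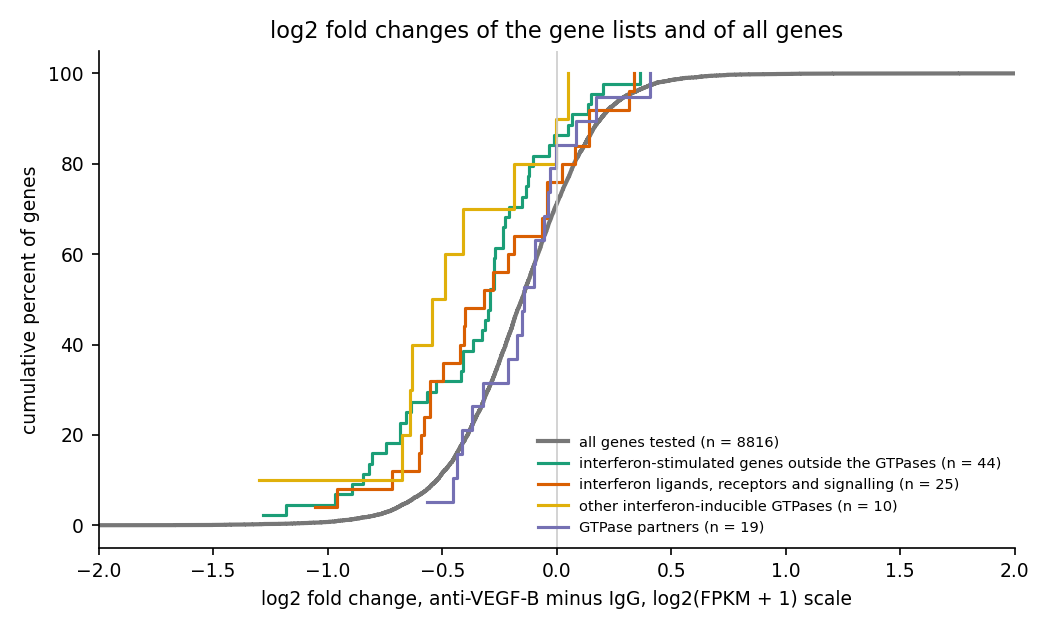
Cumulative percent of genes by log2 fold change (anti-VEGF-B minus IgG) for all 8816 genes tested and for the 4 lists of related genes. The partner list follows all genes, with medians of -0.14 and -0.15, and the other interferon-inducible GTPases lie farthest to the left, with a median of -0.51.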

How the data were processed

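The authors aligned reads of stranded total RNA libraries to GRCm38 with hisat2, obtained transcript levels from StringTie and Ballgown, and deposited 1 table for the 6 libraries, with no step between libraries stated. The deposited values have decimals and were taken to be FPKM, although the methods mention raw counts, so no count model was run. FPKM carry no depth. Among low values (under 0.3 FPKM), at most 1.37% shared 1 ratio between libraries, so whole reads were not recovered. With R 4.3.3 and limma 3.58.1, log2(FPKM + 1) was fitted for genes whose mean reached 1 FPKM (empirical Bayes with trend) without covariates and adjusted over all 8816 genes (Benjamini-Hochberg). The fit was tested on simulated data.

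The members, lists and rules were chosen with earlier results of these data known. All members were named, with, from each of the 4 lists, up to 6 called genes with the lowest adjusted p and the interferon-γ axis, of which 1 gene is not reported here. Alternatives changed the scaling, filter, pseudocount, moderation, replicate block and libraries. Spans come from the table, and RefSeq (GRCm38.p6) matched all 10 members by symbol. No sequences were used here.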

Additional observations from a re-analysis of the deposited data

How the results depend on the processing

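Across all genes, limma called 2528 at an adjusted p under 0.05 (2099 lower, 429 higher with anti–VEGF-B). The count was 1331 with a filter at a mean of 5 FPKM and 12 with no moderation of the variance (3208 at an unadjusted p under 0.05), and ran from 859 (without anti–VEGF-B replicate 3) to 2467 when 1 library was left out. Dropping IgG replicate 2 gave 1359, and dropping anti–VEGF-B replicate 1 gave 1679. The split into lower and higher genes became 913 and 880 with quantile normalization, 918 and 1421 with median centring and 938 and 852 with cyclic loess, and the median over all genes moved from -0.15 to 0.0077, 0.038 and 0.0019.

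Of the other interferon-inducible GTPases, 7 were called. This was 4 after quantile normalization or cyclic loess, 11 of 16 with no filter, and 4 to 6 without 1 library. Of the signalling genes 14 were called, and 4 to 14 without 1 library. Of the interferon-stimulated genes 19 were called, 10 after quantile normalization, 12 after cyclic loess, 12 with the filter at 5 FPKM and 7 to 18 without 1 library. Of the partners 6 were called, 2 after quantile normalization, 3 after cyclic loess and 2 to 6 without 1 library. With no moderation, limma's ordinary linear model called 0 genes of each list, where 7, 16, 20 and 6 had an unadjusted p under 0.05. The cause of these differences was not tested.

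The median log2 fold change of the 10 GTPase genes kept its direction under all 14 alternatives, from -1.54 (pseudocount of 0.1) to -1.02 (without IgG replicate 2). Of these genes 9 were called, 8 with a pseudocount of 0.1 or without IgG replicate 2, and 0 with no moderation. Iigp1 and Gbp7 are left out by the filter of 5 FPKM. Of 138 values of single members under alternatives, 132 moved by less than the spread between replicates. Only Gbp2 turned in direction, to -0.028 after cyclic loess. Among genes that were not called, Ifng turned to 0.047 after cyclic loess and Jak2 to 0.17 after median centring. With 1 library left out, the log2 fold change ran from -0.33 to 0.0065 for Ifng (0.0065 when IgG replicate 1 was dropped), from -0.048 to 0.10 for Ifngr1 (-0.025 when anti–VEGF-B replicate 1 was dropped, -0.048 for IgG replicate 1) and from -0.22 to 0.57 for Ifi47. The latter was -0.015, -0.22 and -0.20 in the fits lacking anti–VEGF-B replicate 1, IgG replicate 1 and IgG replicate 3, and 0.57 in that lacking IgG replicate 2.

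The labels number replicates alike in both groups, but same-numbered libraries did not deviate together (correlations of deviations from the group means of -0.030, 0.11 and 0.089), so the numbers were not taken as pairs. With the replicate block 2578 genes were called. As FPKM carry no depth, the spread between libraries is the only error given.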
